A study of Mus musculus with 2 samples.

Results

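The S100 genes encode small calcium-binding proteins, and 10 of them, S100a1, S100a3, S100a4, S100a5, S100a6, S100a8, S100a10, S100a11, S100a13 and S100a16, were followed on an expression array of mouse embryonic fibroblasts (MEFs) without Lsh and on 1 of wild type MEFs. The members were chosen by name, with their differences between these arrays already known, so the values below describe them and test nothing. Of the 10, 9 were matched to a measured row among 16579 matched genes, each by a single RefSeq transcript row (NM_011311 for S100a4, for example), and S100a11 is not analysed here. The Lsh-/- group was 1 array of RNA from Lsh-/- MEFs, and the Lsh+/+ group was 1 array of RNA from wild type MEFs. Lsh, encoded by Hells, is a chromatin remodelling protein of the SNF2 family needed for normal DNA methylation, and the series was designed to relate methylation of non-repetitive DNA to expression. Both cell types were cultured in DMEM with fetal bovine serum, glutamine and antibiotics, and total RNA was hybridised to the Affymetrix Mouse Genome 430 2.0 array. The sources used here do not say how many embryos or cultures stood behind each array, nor the sex, age or strain of the embryos. With 1 array per genotype there was no spread within a genotype and no test, and the number of arrays limits the precision of every value.

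An S100 protein is usually a dimer in which each chain carries a pair of EF-hand calcium-binding loops. Binding of calcium exposes a surface that docks onto target proteins such as annexins, myosin heavy chains and cytoskeletal regulators. Some family members also leave the cell and act on the receptors Ager (RAGE) and Tlr4. Most of the genes lie together in 1 cluster on mouse chromosome 3, next to the genes of the cornified envelope of skin. In fibroblasts S100a4 is best known as fibroblast-specific protein 1, a marker of mesenchymal cells, while S100a8 belongs to neutrophils and monocytes.

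The promoter windows of 3 members are shown because S100a4 and S100a1 lay farthest from 0 among the members and S100a6, the second gene after S100a4 in the cluster, did not. The sequences are from RefSeq on build GRCm38.p6, from 250 bases before to 50 bases after the annotated start, 5′ to 3′, and capitals mark CG dinucleotides, the substrate of DNA methylation, and the motif TATAAA.
S100a4, chr3:90603520-90603819, plus strand: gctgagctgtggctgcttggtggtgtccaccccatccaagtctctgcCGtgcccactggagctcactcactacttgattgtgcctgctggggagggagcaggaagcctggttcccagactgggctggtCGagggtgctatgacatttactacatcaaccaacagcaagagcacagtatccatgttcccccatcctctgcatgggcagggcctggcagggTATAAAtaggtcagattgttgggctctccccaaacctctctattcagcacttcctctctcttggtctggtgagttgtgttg
S100a1, chr3:90514281-90514580, minus strand: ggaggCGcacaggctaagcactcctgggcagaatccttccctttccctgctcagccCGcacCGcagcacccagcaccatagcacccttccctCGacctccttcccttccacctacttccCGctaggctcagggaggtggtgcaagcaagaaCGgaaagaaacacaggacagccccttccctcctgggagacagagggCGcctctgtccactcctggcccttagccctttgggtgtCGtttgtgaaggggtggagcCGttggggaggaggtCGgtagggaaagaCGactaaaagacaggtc
S100a6, chr3:90612644-90612943, plus strand: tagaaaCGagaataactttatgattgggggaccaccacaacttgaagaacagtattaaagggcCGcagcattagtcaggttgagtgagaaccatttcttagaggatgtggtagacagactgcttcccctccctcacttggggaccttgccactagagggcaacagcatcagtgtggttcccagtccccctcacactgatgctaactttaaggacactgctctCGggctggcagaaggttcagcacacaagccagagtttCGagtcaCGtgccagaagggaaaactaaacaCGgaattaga

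The S100a4 window held 2 CG dinucleotides, against a median of 7 over 32851 promoter windows of the same length, and 23.3% of all windows held no more than 2. It also held 1 TATAAA, beginning 31 bases before the annotated start on the gene's own strand. Both strands were searched for TATAAA, and 13.6% of all windows held it on either. The S100a1 window held 11 CG and no TATAAA, and 41.4% of all windows held at least 11. The S100a6 window held 6 CG and no TATAAA. Promoter windows were matched for 9 of the 10 members, and S100a10 had none in the table. S100a13 had 14 CG, S100a11 15, S100a8 4 with 1 TATAAA 30 bases before its start, and S100a5 3. S100a16 had 2 windows with 2 and 4 CG, and S100a3 had 4 windows with 0 to 5 CG, of which the third held 1 TATAAA 52 bases before its start. S100a1 and S100a13 are transcribed away from each other from neighbouring starts. Their windows share 204 bases with 7 CG, chr3:90514281-90514484. No methylation was measured in these samples, so the CG counts describe the sequence alone.

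Values are RMA expression values on the log2 scale, and differences are Lsh-/- minus Lsh+/+. A gene counted as kept if its brighter reading reached the median over all rows of that array, 3.88 for Lsh-/- and 3.86 for Lsh+/+. This limit marks dim rows and is not a detection limit. Of the 9 measured members 6 were kept and 3 lay below the limit on both arrays. Of all 16579 measured genes 9168 were kept. Hells, the gene knocked out, read 5.22 in Lsh-/- MEFs and 6.68 in Lsh+/+ MEFs, a difference of -1.46. The sources used here do not place its probes inside or outside the deleted part, and outside it they would not check the labels.

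S100a4 had the largest difference of the members. It read 6.29 in Lsh-/- MEFs and 10.3 in Lsh+/+ MEFs, a difference of -3.99 or 15.8-fold lower in Lsh-/-. Both values lay above the dimness limit, and adding 32 to the linear values made the difference -3.53. Only 12 of the 9168 kept genes had a lower difference. S100a4 binds the heavy chain of non-muscle myosin IIA and loosens its filaments. That heavy chain, Myh9, read 8.19 in Lsh-/- MEFs and 8.64 in Lsh+/+ MEFs, a difference of -0.45 and within 2-fold.

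S100a1, best known for binding ryanodine receptors and the calcium pump of heart and skeletal muscle, was the other member past 2-fold. It read 6.85 in Lsh-/- MEFs and 8.07 in Lsh+/+ MEFs, a difference of -1.22 or 2.33-fold lower in Lsh-/-. S100a13, whose promoter window overlaps that of S100a1, takes part in the release of the growth factor Fgf1 from cells. It read 5.47 in Lsh-/- MEFs and 6.19 in Lsh+/+ MEFs. Its difference of -0.71 was in the direction of S100a1 but within 2-fold.

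S100a6 (calcyclin), a protein of proliferating and migrating cells, read 10.3 in Lsh-/- MEFs and 10.6 in Lsh+/+ MEFs, a difference of -0.29. Its binding protein Cacybp read 7.59 in Lsh-/- MEFs and 7.27 in Lsh+/+ MEFs. S100a16, a broadly expressed member, read 7.29 in Lsh-/- MEFs and 7.49 in Lsh+/+ MEFs, a difference of -0.19. Both differences lay between the lower and upper quartiles of all kept genes, -0.34 and 0.35. S100a6 and S100a4 lay apart by size, although a single measured gene, S100a5, separates them on the chromosome.

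S100a10 was the only kept member with a higher value in Lsh-/-. This protein (p11) has lost calcium binding and forms a complex with annexin A2 at the plasma membrane, where it takes part in plasminogen activation. It read 9.48 in Lsh-/- MEFs and 8.82 in Lsh+/+ MEFs, a difference of 0.66 or 1.58-fold. Anxa2 and Ahnak did not share the direction. Anxa2 read 9.60 in Lsh-/- MEFs and 9.94 in Lsh+/+ MEFs (-0.34), and Ahnak, the large scaffold bound by the complex, read 8.74 in Lsh-/- MEFs and 9.09 in Lsh+/+ MEFs (-0.34). All 3 differences were within 2-fold.

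The 3 dim members gave no fold. S100a3, a protein of the hair cuticle, read 2.15 in Lsh-/- MEFs and 2.78 in Lsh+/+ MEFs. S100a8, a subunit of the neutrophil protein calprotectin, read 1.71 in Lsh-/- MEFs and 1.78 in Lsh+/+ MEFs. S100a5, known from olfactory neurons, read 1.66 on both arrays. The S100a5 value was shared exactly by 165 rows of the Lsh-/- array and 43 rows of the Lsh+/+ array, so the lowest values of the table are stepped and an equal reading there carries no measurement of equality. In the plot of the members' values the 6 kept genes and the 3 dim ones fall on opposite sides of the limits.

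**Figure D1:**
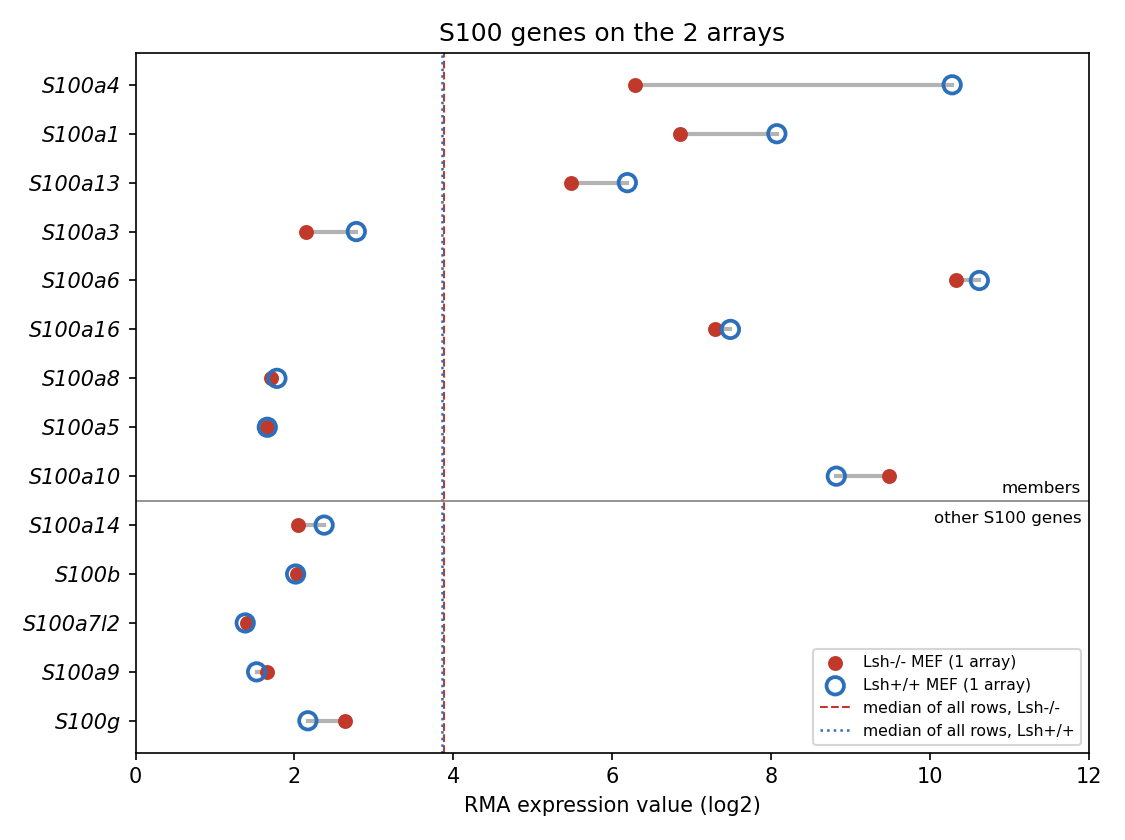
Expression values (log2, RMA) of the 14 measured S100 genes, with filled red points for Lsh-/- MEFs and open blue circles for Lsh+/+ MEFs, 1 array each; vertical lines are the medians of all rows (3.88 and 3.86). S100a4 has the widest gap, 6.29 against 10.3, and S100a10 is the only kept gene with the red point to the right.

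Counted by size, 2 of the 6 kept members, S100a4 and S100a1, were at least 2-fold lower in Lsh-/-, and among all kept genes 6.06% were. None was at least 2-fold higher, and among all kept genes 4.65% were. Of the 6 kept members 5 had a difference below 0, as did 48.2% of all kept genes. At 1.5-fold, 3 members were lower (S100a4, S100a1 and S100a13; 13.8% of all kept genes) and S100a10 alone was higher (13.7%). At 3-fold S100a4 alone was lower (2.62%) and none was higher (1.43%). The median difference of the 6 kept members was -0.50, and that of the 9 measured members -0.29, beside 0.01 for all kept genes and 0.02 for all measured genes. The members were listed with these differences known, so nothing is read from these counts. The plot of all kept genes shows S100a4 and S100a1 beyond the 2-fold lines on the lower side and the other 4 between the lines.

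**Figure D2:**
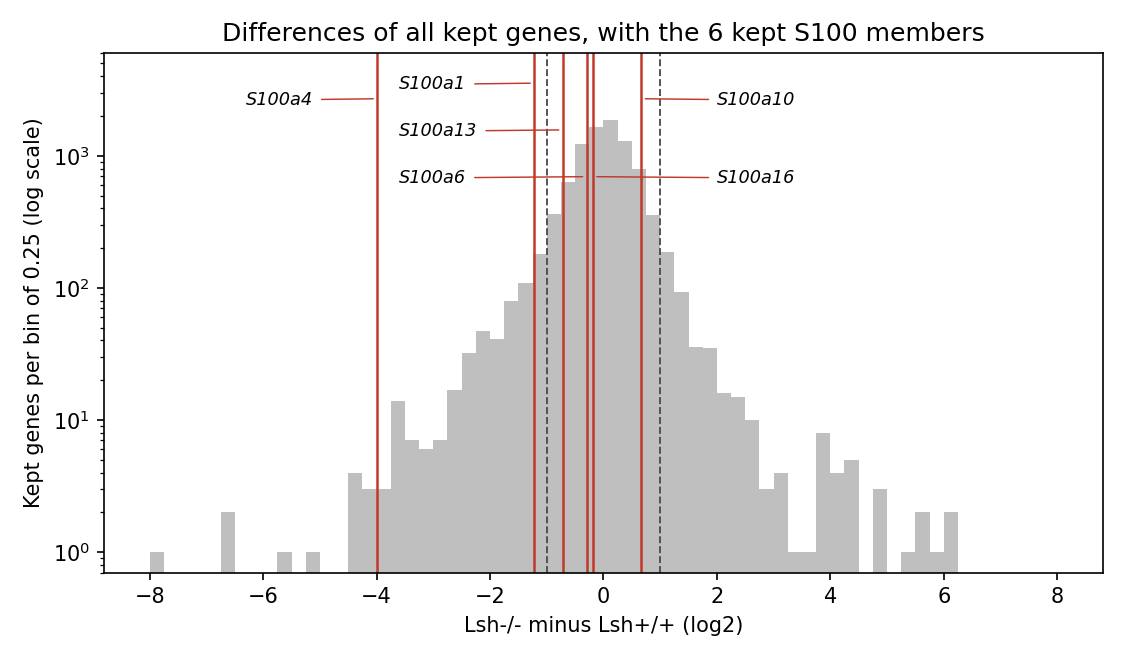
Distribution of the difference between Lsh-/- and Lsh+/+ MEFs (log2) over the 9168 kept genes, as genes per bin on a log axis; red lines are the 6 kept S100 members and dashed lines mark 2-fold. S100a4 lies at -3.99 and S100a1 at -1.22, outside the dashed lines, and the other 4 lie between them.

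Each direction is relative to the other genes on the arrays, because the 18 hybridisation control probe sets for bioB, bioC, bioD and cre, whose RNA is added in a fixed amount, were all higher on the Lsh-/- array, by a median of 0.49. With the Lsh-/- array scaled to them the median of all kept genes was -0.48, S100a4 was -4.48, S100a1 -1.71, S100a13 -1.21 and S100a10 0.17. S100a10 kept its sign, and S100a13 passed 2-fold lower. Under this scaling 16.7% of all kept genes were at least 2-fold lower. Across the settings tried S100a4 ranged between -4.48 and -3.53 and S100a1 between -1.71 and -1.03.

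Of the 5 other measured S100 genes none was kept. S100a9, the partner of S100a8 in calprotectin, read 1.66 in Lsh-/- MEFs and 1.52 in Lsh+/+ MEFs. S100a14, an epithelial member, read 2.04 in Lsh-/- MEFs and 2.37 in Lsh+/+ MEFs. S100a7l2 read 1.40 in Lsh-/- MEFs and 1.38 in Lsh+/+ MEFs. S100b, the glial member, read 2.03 in Lsh-/- MEFs and 2.01 in Lsh+/+ MEFs. S100g, the vitamin D-regulated calbindin of gut epithelium, read 2.64 in Lsh-/- MEFs and 2.17 in Lsh+/+ MEFs. These genes stayed dim on both arrays, as did 14 of 15 measured neutrophil and macrophage markers and 11 of 12 markers of glia and pigment cells. Of all 16579 measured genes 7411 were not kept. S100a2, S100a7a and S100z are not analysed here.

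All 9 measured members lie on chromosome 3. In gene order S100a1, S100a13, S100a14, S100a16, S100a3, S100a4, S100a5, S100a6, S100a8, S100a9 and S100a7l2 formed an uninterrupted run of measured S100 genes, and S100a10 stood apart. The 5 measured genes before the run, Ints3, Npr1, Ilf2, Snapin and Chtop, had differences between -0.02 and 0.35. Of these, Npr1 was dim on both arrays. Chtop, directly beside S100a1, read 7.65 in Lsh-/- MEFs and 7.65 in Lsh+/+ MEFs, a difference of 0.01. The differences past 2-fold in the run were those of S100a1 at its edge and of S100a4 within it. Between them S100a13 and S100a16 had smaller differences, and S100a14 and S100a3 were dim on both arrays. After the run, Lor (loricrin), a protein of the cornified envelope, read 3.92 in Lsh-/- MEFs and 2.58 in Lsh+/+ MEFs. The Lsh+/+ value was dim, so the fold over the limit was only at least 1.05. Over the neighbours of all S100 genes, 17 of 40 were kept, with 1 at least 2-fold higher, 1 at least 2-fold lower and a median difference of 0.16. The 409 other kept genes of chromosome 3 had a median of -0.10, with 7.58% at least 2-fold lower and 3.67% at least 2-fold higher, near the 6.06% and 4.65% of all kept genes.

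**Figure D3:**
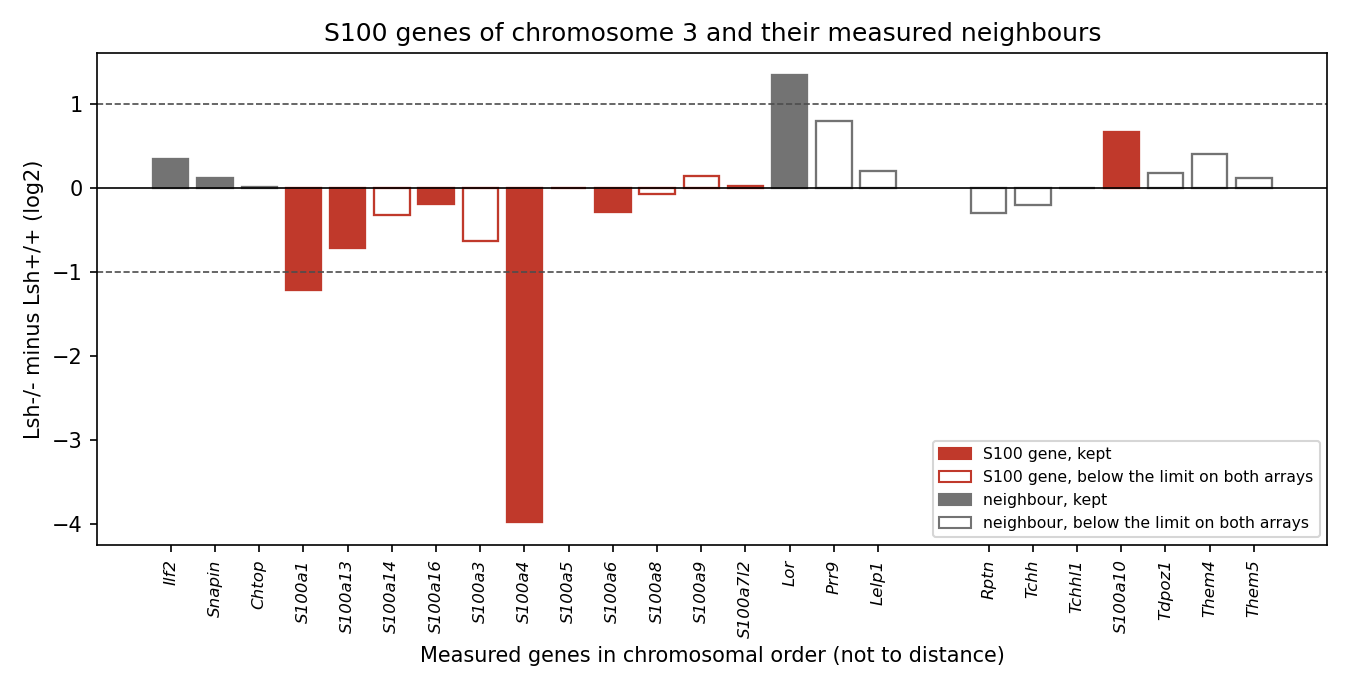
Difference between Lsh-/- and Lsh+/+ MEFs (log2) for measured genes of chromosome 3 in order, S100 genes in red and the 3 nearest measured neighbours on each side in grey; open bars were below the limit on both arrays and dashed lines mark 2-fold. The bar of S100a4 reaches -3.99 and that of S100a6 stays within 2-fold. S100a3 and S100a5, on either side of S100a4, were dim on both arrays and give no fold.

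Annexins, which bind membranes in the presence of calcium and dock S100 proteins, had a median difference of -0.14. Of 7 kept annexins 1 passed 2-fold on the higher side, as did 4.65% of all kept genes. The other 6 stayed within 2-fold, as did 8186 of the 9168 kept genes. Anxa4 read 6.38 in Lsh-/- MEFs and 5.35 in Lsh+/+ MEFs, a difference of 1.02. Anxa1, a partner of S100a11, read 9.87 in Lsh-/- MEFs and 9.84 in Lsh+/+ MEFs.

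Of 21 kept intracellular partners of S100 proteins 1 was at least 2-fold higher (4.76%, against 4.65% of all kept genes). At least 2-fold lower was 1 (4.76%, against 6.06%), 19 lay between, and the median was -0.14. Fgf1, the growth factor released with S100a13, read 5.96 in Lsh-/- MEFs and 4.20 in Lsh+/+ MEFs, 3.40-fold higher in Lsh-/-, opposite in sign to S100a13. Capzb, a subunit of the actin capping protein whose partner chain carries an S100-binding stretch, was 2.09-fold lower, at 7.48 in Lsh-/- MEFs and 8.54 in Lsh+/+ MEFs.

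The receptors Ager and Tlr4 lay below the limit on both arrays. Ager read 3.81 in Lsh-/- MEFs and 3.77 in Lsh+/+ MEFs, and Tlr4 read 3.37 in Lsh-/- MEFs and 3.64 in Lsh+/+ MEFs. Among 5 kept receptors Bsg (basigin), a receptor described for S100A9 in human cells, was the only gene past 2-fold. It read 10.5 in Lsh-/- MEFs and 11.7 in Lsh+/+ MEFs, 2.25-fold lower in Lsh-/-. Among all kept genes 6.06% were at least 2-fold lower.

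Of 27 kept EF-hand proteins outside the S100 family 4 were at least 2-fold lower (14.8%, against 6.06% of all kept genes). At least 2-fold higher was 1 (3.70%, against 4.65%), and the median was -0.21. Tnnc1, the troponin C of slow and cardiac muscle, read 2.94 in Lsh-/- MEFs and 5.40 in Lsh+/+ MEFs, at least 2.86-fold lower over the limit. Calml4 was at least 2.21-fold lower by the same measure, and Rcn2, a calcium-binding protein of the secretory pathway, was 2.24-fold lower. Tnnc1 and Calml4 were kept through their Lsh+/+ value alone. Efhd2, an actin-binding EF-hand protein, was 2.15-fold lower. Taking annexins, partners, receptors and other EF-hand proteins as 1 list, 6 of 59 kept genes were at least 2-fold lower and 3 at least 2-fold higher, or 10.2% and 5.08%, beside 6.06% and 4.65% of all kept genes.

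The cornified envelope genes and fused S100 proteins next to the cluster were mostly dim, with 10 of 13 measured genes below the limit on both arrays. Among all 16579 measured genes 7411 were not kept. Besides Lor, Ivl (involucrin) read 4.75 in Lsh-/- MEFs and 3.21 in Lsh+/+ MEFs, at least 1.85-fold higher over the limit. Of these 3 kept genes, Lor and Ivl were kept through their Lsh-/- value alone.

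**Figure D4:**
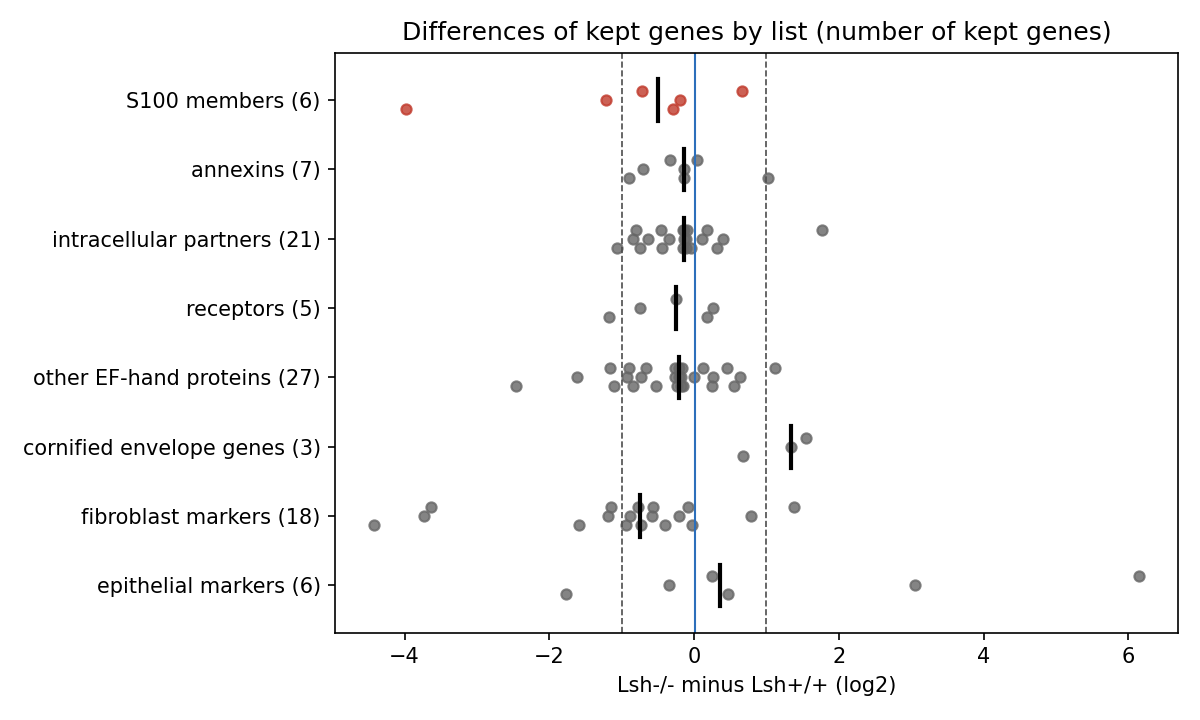
Differences between Lsh-/- and Lsh+/+ MEFs (log2) of kept genes by list, 1 point per gene, with black bars at list medians, a blue line at the median of all kept genes (0.01) and dashed lines at 2-fold. The S100 members have a median of -0.50 and the fibroblast markers -0.75, and the annexins and intracellular partners both lie near -0.14.

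The genes whose values on both arrays lay nearest to those of S100a4, by Euclidean distance over the 2 arrays, included Prnp and Tagln. Prnp, the prion protein gene, read 6.54 in Lsh-/- MEFs and 9.60 in Lsh+/+ MEFs at a distance of 0.72. Tagln, an actin-binding protein of smooth muscle, read 7.01 in Lsh-/- MEFs and 9.70 in Lsh+/+ MEFs at a distance of 0.93. With 1 array per genotype this likeness rests on a single pair of values for each gene.

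S100a4 is itself used as a fibroblast marker, and other markers of cell type differed in both directions. Of 20 fibroblast markers other than S100a4, 18 were kept. Of these 18, 6 were at least 2-fold lower in Lsh-/- (33.3%, against 6.06% of all kept genes). At least 2-fold higher was 1 (5.56%, against 4.65%), 11 lay between and 16 had differences below 0 (88.9%, against 48.2%). The values of the 20 ran from 1.87 to 12.5 in Lsh-/- MEFs and from 1.93 to 12.5 in Lsh+/+ MEFs. Thy1 and Fap lay below the limit on both arrays. Col1a2, a chain of type I collagen, read 7.06 in Lsh-/- MEFs and 11.5 in Lsh+/+ MEFs, and Postn and Lum were at least 7.64-fold and 5.43-fold lower over the limit. Among the markers counted as lower, Postn and Lum were kept through their Lsh+/+ value alone. Ddr2, a collagen receptor, was 2.61-fold higher, Col3a1 differed by 0.78, and Vim, Fn1 and Sparc differed by -0.09, -0.03 and -0.21. Of 6 kept epithelial markers Krt18 (at least 33.4-fold) and Krt19 (8.27-fold) were higher in Lsh-/- (33.3%, against 4.65% of all kept genes). Krt15 was 3.41-fold lower (16.7%, against 6.06%). Krt8, Krt14 and Krt7 differed by 0.24, 0.46 and -0.35, and Krt18 was kept through its Lsh-/- value alone. The epithelial markers Epcam and Cdh1 lay below the limit on both arrays. The 3′ to 5′ gap of the control probe sets, a sign of RNA integrity, differed by 0.60 for Actb and 0.70 for Gapdh, wider in Lsh-/-, and by -0.59 for 18S ribosomal RNA. The part of these markers and of RNA integrity in the S100 differences was not tested. Fewer cells of a type and less RNA per cell cannot be told apart in such bulk RNA.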

How the data were processed

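RNA of 1 Lsh-/- and 1 Lsh+/+ MEF sample was measured on Affymetrix Mouse Genome 430 2.0 arrays, per the labels' protocols. The authors deposited log2 expression values made with RMA, per the submitters' processing notes; the log2 scale was read from the range (0.89 to 13.1), and its version, probe grouping and genome build are not given in the sources at hand. RMA subtracts background, makes the array distributions alike and summarises probes, so a shift shared by most genes is removed. Of 23950 rows, 64 were controls, 21230 matched 1 gene of the GRCm38.p6 RefSeq table by accession without version and 2656 matched none. The row with the highest mean over the arrays stood for each gene, and 9168 genes were kept over the median of all rows. Genes were counted by the size of the plain difference, with 2-fold as threshold and no value replaced. A dim value was replaced by the limit only in the "at least" folds of single genes. A gene counted past 2-fold can therefore have a smaller fold over the limit, such as 1.05 for Lor.

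The text names all members, other S100 genes, Hells, Anxa1, Anxa2, Ahnak, Cacybp, Ager and Tlr4, up to 4 genes per list and direction past 2-fold, neighbours past 2-fold and the 3 genes nearest to S100a4; a few of these are not reported here. Myh9, Chtop, Col3a1, Vim, Fn1, Sparc, Thy1, Fap, Epcam and Cdh1 and the neighbours listed in order were chosen once their values were known. Members and lists were chosen with earlier results of these data known. Alternatives were the mean over rows, quantile normalization, no limit or the upper quartile as limit, loess (span 0.3), a pseudocount of 32, scaling to the hybridisation controls, thresholds of 1.5-fold and 3-fold, and identical values counted once. The kept genes were held fixed under the pseudocount and the scaling. Counting was tested on simulated data. Python 3.11.15, numpy 2.4.6, pandas 2.3.3 and statsmodels 0.14.6 were used.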

Additional observations from a re-analysis of the deposited data

How the results depend on the processing

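No paired analysis was possible because there was a single array of either genotype, which also left no replicate to omit. Of the 6 kept members, 2 were at least 2-fold lower; this became 1 at 3-fold, and 1 member was at least 1.5-fold higher where none was 2-fold higher. S100a4 (-4.48 to -3.53) and S100a1 (-1.71 to -1.03) stayed past 2-fold lower under each change of the values, and S100a13 passed 2-fold lower (-1.21) with the Lsh-/- array scaled to the hybridisation controls, which made 3 kept members lower. For the 59 related genes the counts of 3 higher and 6 lower became 0 and 2 with the pseudocount, 1 and 18 with that scaling and 1 and 2 at 3-fold, and 17 were lower at 1.5-fold. Of all 9168 kept genes, 101 were higher and 193 lower (2.11%) with the pseudocount. With that scaling 150 were higher and 1533 lower (16.7%). At 3-fold 1.43% of all kept genes were higher and 2.62% lower, and at 1.5-fold 13.8% were lower. For the 17 kept neighbours the counts of 1 higher and 1 lower became 0 and 0 with the upper quartile as limit (8 kept), with the pseudocount and at 3-fold, 0 higher with the scaling, and 2 higher at 1.5-fold. A stricter limit or threshold counts fewer genes by its construction, a pseudocount shrinks differences of dim genes, and the scaling lowers every Lsh-/- value alike. The share of higher genes among all 2-fold calls, 43.4% as deposited, was 8.91% with the scaling and 34.4% with the pseudocount. Of 68 alternative counts and medians, 51 stayed within 1.5 times the first count or within the central spread of the differences (0.51). A count of 0 that stayed 0 is among them. The mean over rows could not change the 9 measured members, which had 1 row each, so the 51 do not measure robustness. Signal over background was not known for any row, so no fold is given for the dim members S100a3, S100a5 and S100a8.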
